A study of Rattus norvegicus with 8 samples.

Results

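Fracture callus cells of rats that received magnesium were set against those of rats that received CGRP, 4 weeks after the fracture, with zoledronate given to both. All barcodes (one barcode stands for one captured cell) with at least 5000 unique molecular identifiers (UMIs, one per captured transcript) were taken from the 2 libraries. These were 15323 barcodes, 7268 from magnesium and 8055 from CGRP, of 69624 in the 8 libraries of the series. UMIs were summed per gene and library and divided by the library's total, as counts in 1000000 (CPM). The share of cells with at least 1 UMI of a gene was taken after each cell had been thinned at random to 5000 UMIs.

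The animals were Sprague Dawley rats. The magnesium and the CGRP group both had zoledronate, a bisphosphonate that blocks bone resorption. It was injected weekly under the skin, 0.3 mg per kg each time, over the 12 weeks that preceded a closed fracture of one femur. A zoledronate group without either addition and a control group, each at week 4, and the magnesium and CGRP groups at week 12 are used for reference. The labels name a stainless steel nail and a magnesium-containing nail without saying which group had which, and they give neither the dose and route of CGRP nor the number of animals. Cells were freed from the callus by 4 h in collagenase A and then spent 24 h in culture before capture, so only cells that live in a dish were measured. Each group is 1 library. The libraries can therefore be compared, but the treatments cannot, and no test was possible.

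Callus is the tissue that forms around a fracture, and its stromal cells lay down a collagen matrix that is later replaced by cartilage and bone. Magnesium is an ion that cells take up through channels and transporters. CGRP, calcitonin gene-related peptide, is released by sensory nerves of the periosteum and acts through a receptor made of Calcrl and Ramp1, which raises cyclic AMP. Implanted magnesium has been described to act on bone partly through the release of CGRP from these nerves.

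The members held 149970129 UMIs in magnesium and 157381097 UMIs in CGRP. The median cell had 19384 UMIs and 3427 genes in magnesium, against 18011 UMIs and 3319 genes in CGRP, so the depths were alike. The 10 fibroblastic markers were listed in both and summed to 45387 CPM in magnesium and 28731 CPM in CGRP. Ptprc, the common marker of blood cells, was listed in neither table, and Csf1r of macrophages was at 0.080 CPM in magnesium and 0.140 CPM in CGRP. Pecam1 of endothelium was at 0.0333 CPM in magnesium and 0.102 CPM in CGRP. The 10 macrophage markers summed to 15.2 CPM in magnesium, where 5 were listed, and 12.9 CPM in CGRP, where 4 were. That sum was mostly Cd14. The 8 endothelial markers summed to 25.7 CPM in magnesium, where 4 were listed, and 16.1 CPM in CGRP, where 3 were. Most of it was Eng, which is also among the mesenchymal surface markers below. No marker of B cells or red blood cells was listed. Of the 8 osteoclast markers 4 were listed, and their sum of 163 CPM in magnesium and 59.4 CPM in CGRP was mostly Ctsk, which stromal cells also make. Bglap of mature osteoblasts was at 0.107 CPM in magnesium and 0.0699 CPM in CGRP, and Col2a1 of mature chondrocytes was at 0.0733 CPM in magnesium and 0.0445 CPM in CGRP. The 8 osteoblast markers summed to 60.6 CPM in magnesium and 30.2 CPM in CGRP, and the 8 chondrocyte markers to 316 CPM in magnesium and 259 CPM in CGRP. No cell class that lacks the genes below was at hand to gauge free RNA.

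The tables shared 11265 genes, and 7149 of them averaged at least 5 CPM and were counted. The log2 ratio of magnesium over CGRP, with 1 CPM added to each value, had a median of 0.0032 and a standard deviation of 0.39 over the genes counted. Of these genes 3606 lay above 0 and 3543 below 0. At least 2-fold higher in magnesium were 106 genes (1.48% of those counted), and at least 2-fold lower were 73 genes (1.02%). At 1.5-fold the counts were 331 higher (4.63%) and 303 lower (4.24%), the shares to hold beside the list counts below. These are counts of genes by size of difference between 1 library and another, and not of genes shown to change. The exact 95% Poisson interval of a sum of UMIs covers counting error only. Its upper bound lay within 2.29% of the value for every gene at 50 CPM or more in both libraries. For every gene at 5 CPM or more in both it lay within 7.41%. Genes lower than that in either library, Bmp4 in magnesium among them, are not covered by these bounds.

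**Figure D1:**
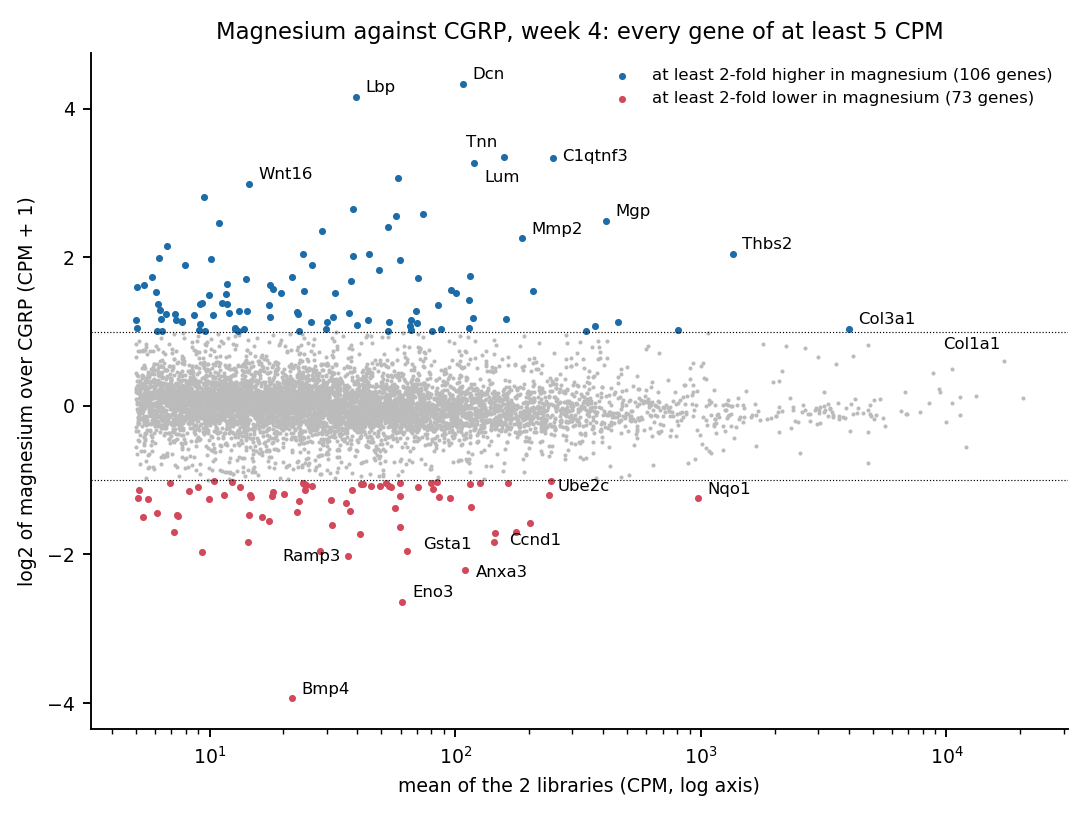
Each dot is a gene counted at week 4, with the mean of the magnesium and CGRP libraries in CPM on a log axis and the log2 ratio of magnesium over CGRP, with 1 CPM added, on the vertical axis. The 106 genes at least 2-fold higher in magnesium reach 4.33 (Dcn), and the 73 genes at least 2-fold lower reach -3.94 (Bmp4); dotted lines mark 2-fold.

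Genes of the fibrous matrix led the side that was higher in magnesium. The small leucine-rich proteoglycans are secreted proteins that coat collagen fibrils and set their spacing and width. Decorin (Dcn) was at 206 CPM (95% interval 204 to 209) in magnesium and 9.31 CPM (8.84 to 9.80) in CGRP, which is 22.2-fold higher in magnesium. Its level was 134 CPM with zoledronate alone and 148 CPM in control. The CGRP library was thus the one that stood apart from the other libraries of week 4. Lumican (Lum) was at 218 CPM in magnesium and 21.7 CPM in CGRP, against 168 CPM with zoledronate alone and 192 CPM in control. Asporin (Aspn) was at 105 CPM in magnesium and 11.7 CPM in CGRP, and fibromodulin (Fmod) at 108 CPM in magnesium and 53.2 CPM in CGRP. Of the 7 proteoglycan genes counted, 5 were at least 1.5-fold higher in magnesium and 0 were lower, with a median log2 ratio of 1.004.

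Far fewer cells held a decorin or lumican UMI in CGRP. After thinning, 49.1% of cells in magnesium and 3.60% in CGRP had a decorin UMI, and before thinning the shares were 75.8% in magnesium and 9.27% in CGRP. For lumican the thinned shares were 50.6% in magnesium and 7.88% in CGRP, and the unthinned ones 77.8% in magnesium and 16.6% in CGRP. Both UMIs were found in 30.1% of magnesium cells (exact 95% Clopper-Pearson interval 29.0 to 31.1) and in 0.981% of CGRP cells (0.777 to 1.22). A decorin UMI together with one of Mki67, a marker of cycling cells, was found in 6.44% of magnesium cells and 0.708% of CGRP cells. That share depends on how many cells had a decorin UMI at all. Of the cells with a decorin UMI, 13.1% in magnesium and 19.7% in CGRP also had one of Mki67. Of the cells without a decorin UMI, 20.2% in magnesium and 34.2% in CGRP had one of Mki67. Summed over the proteoglycan list, the median cell held 17 UMIs of 5000 in magnesium and 8 UMIs in CGRP, and the 10th and 90th percentiles of cells were 9 and 29 UMIs in magnesium and 4 and 15 UMIs in CGRP.

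The matricellular proteins, which sit in the matrix and signal to cells more than they bear load, followed. Thrombospondin 2 (Thbs2), an inhibitor of vessel growth, was abundant at 2170 CPM in magnesium and 525 CPM in CGRP, a 4.13-fold difference. Its level was 1859 CPM with zoledronate alone and 1787 CPM in control. Periostin (Postn), a protein of the periosteum and of loaded connective tissue, was at 308 CPM in magnesium and 105 CPM in CGRP, with 339 CPM under zoledronate alone and 105 CPM in control. C1qtnf3, a secreted C1q-like protein of cartilage and stroma, was at 456 CPM in magnesium and 44.5 CPM in CGRP. Tenascin N (Tnn), a glycoprotein of periosteum and developing bone, was at 288 CPM in magnesium and 27.3 CPM in CGRP, although it stood outside the list. Thbs4, a thrombospondin of tendon and muscle, went the other way, with 25.7 CPM in magnesium and 102 CPM in CGRP. It was at 162 CPM with zoledronate alone, above both. Of the 12 matricellular genes counted, 7 were at least 1.5-fold higher in magnesium and 1 was lower, with a median log2 ratio of 0.78.

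**Figure D2:**
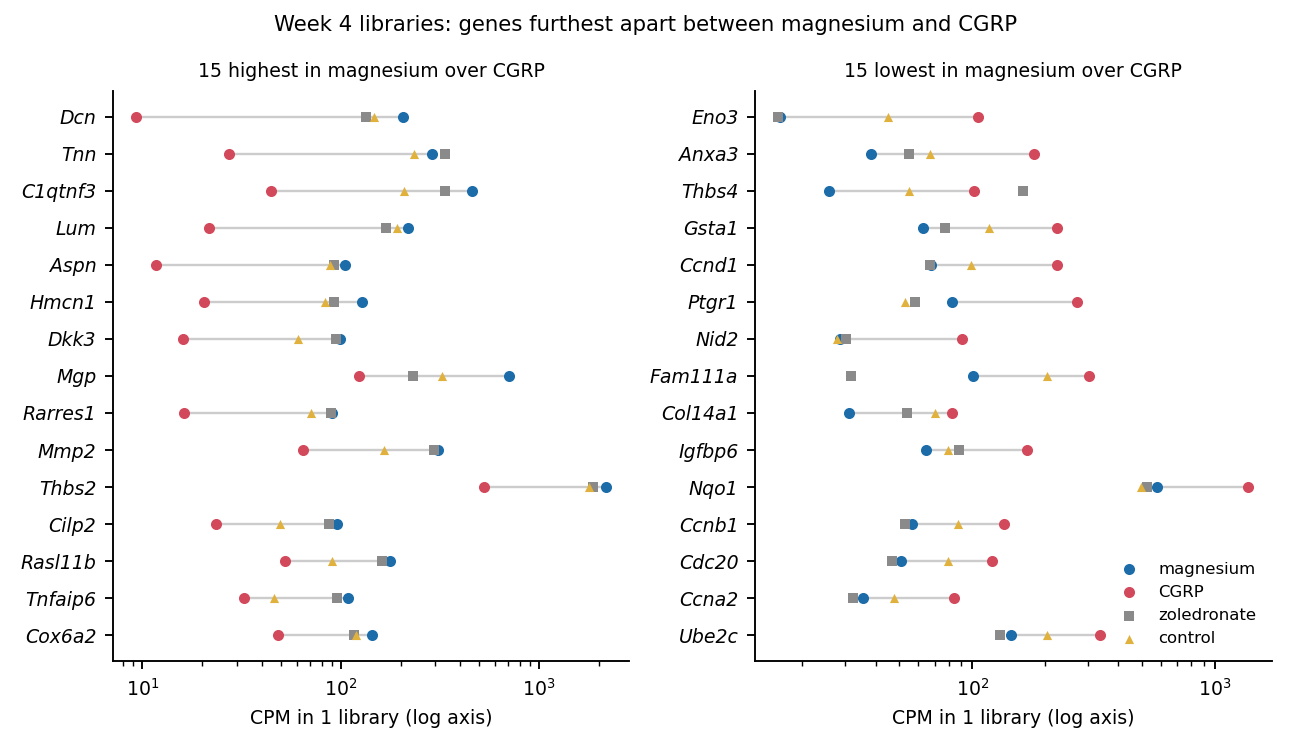
Levels in CPM on a log axis in the 4 libraries of week 4, for the 15 genes highest (left) and lowest (right) in magnesium over CGRP among those averaging at least 50 CPM. Each symbol is 1 library and the grey line joins magnesium and CGRP; for Dcn the levels were 206 CPM in magnesium, 9.31 CPM in CGRP, 134 CPM with zoledronate alone and 148 CPM in control.

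The fibrillar collagens differed by a smaller ratio. Col1a1, the main chain of type I collagen, was at 20738 CPM in magnesium and 13649 CPM in CGRP, and its partner Col1a2 at 12295 CPM in magnesium and 8736 CPM in CGRP. Type III collagen (Col3a1), typical of young repair tissue, was at 5398 CPM in magnesium and 2632 CPM in CGRP. All of these had a UMI in nearly every cell of both libraries, so at such levels the share of cells could not show a difference. The median cell held 216 UMIs of the collagen list in magnesium and 140 UMIs in CGRP. Col14a1, a fibril-associated collagen, was lower in magnesium, at 31.2 CPM against 82.2 CPM in CGRP. Of the 11 collagens counted, 6 were at least 1.5-fold higher in magnesium and 1 was lower, with a median log2 ratio of 0.60.

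Enzymes that process collagen were closer together, with 4 of 18 genes at least 1.5-fold higher in magnesium, 1 lower and a median of 0.33. Adamts2, the protease that trims procollagen, was at 13.1 CPM in magnesium and 2.78 CPM in CGRP. Plod2, a lysyl hydroxylase needed for crosslinks, was at 750 CPM in magnesium and 442 CPM in CGRP. Lysyl oxidase (Lox), which forms the crosslinks, ran against these, at 44.3 CPM in magnesium and 75.1 CPM in CGRP. Elastic fibre genes had a median of 0.42, with 2 of 8 at least 1.5-fold higher in magnesium and 0 lower. Mfap4, a protein of the microfibrils, was the furthest of them, at 16.8 CPM in magnesium and 3.52 CPM in CGRP.

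Basement membrane genes split. Hemicentin 1 (Hmcn1), a large anchoring protein of the matrix, was at 128 CPM in magnesium and 20.4 CPM in CGRP, and Col15a1 was at 72.6 CPM in magnesium and 16.9 CPM in CGRP. Nidogen 2 (Nid2), which links laminin to collagen IV, was at 28.6 CPM in magnesium and 91.0 CPM in CGRP. Of 8 counted, 4 were at least 1.5-fold higher in magnesium and 1 was lower. Among matrix proteases, gelatinase A (Mmp2) was at 310 CPM in magnesium and 64.2 CPM in CGRP, and a UMI was found in 67.7% of magnesium cells and 22.9% of CGRP cells (93.5% in magnesium and 50.6% in CGRP unthinned). The inhibitor Timp3 was at 22.1 CPM in magnesium and 6.04 CPM in CGRP, and membrane-bound Mmp14, which activates Mmp2, at 87.5 CPM in magnesium and 60.2 CPM in CGRP. For the list as a whole 3 of 9 genes were at least 1.5-fold higher in magnesium and 0 lower. Cathepsin K (Ctsk), a collagen-degrading protease, was at 150 CPM in magnesium and 51.6 CPM in CGRP.

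Few cartilage and bone genes reached the minimum, and most that were counted were higher in magnesium. The transcription factor of cartilage Sox9 was at 89.0 CPM in magnesium and 53.6 CPM in CGRP, and aggrecan (Acan), the large proteoglycan of cartilage, at 118 CPM in magnesium and 76.7 CPM in CGRP. Cilp2, a protein of the intermediate layer of cartilage, was at 95.2 CPM in magnesium and 23.6 CPM in CGRP, and Comp, which binds collagen in cartilage and tendon, at 57.8 CPM in magnesium and 17.4 CPM in CGRP. Hapln1, the link protein that fastens aggrecan to hyaluronan, was lower in magnesium. It was at 50.8 CPM in magnesium and 112 CPM in CGRP, against 31.8 CPM with zoledronate alone and 52.3 CPM in control, and 20.1% of magnesium cells and 39.3% of CGRP cells had a UMI (51.8% in magnesium and 76.3% in CGRP unthinned). Of 6 cartilage genes counted, 4 were at least 1.5-fold higher in magnesium and 1 was lower. Matrix Gla protein (Mgp), an inhibitor of mineralisation, was at 702 CPM in magnesium and 124 CPM in CGRP. It was at 231 CPM with zoledronate alone and 325 CPM in control, so here magnesium was above and CGRP below both.

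In the bone list all 5 genes counted lay above 0 in log2 ratio, against 3606 of the 7149 genes counted in all. Of the 5, 2 were at least 1.5-fold higher in magnesium. These were Alpl, with a log2 ratio of 1.73, and Enpp1, with 0.74, while osteopontin, with 0.58, fell just short. Alkaline phosphatase (Alpl), an early enzyme of mineralising cells, was at 33.9 CPM in magnesium and 9.51 CPM in CGRP. Its UMIs were found in 14.4% of magnesium cells and 4.41% of CGRP cells (39.3% in magnesium and 14.6% in CGRP unthinned). Osteopontin (Spp1) was at 1115 CPM in magnesium and 745 CPM in CGRP, yet 75.6% of magnesium cells and 82.5% of CGRP cells held a UMI (95.2% in magnesium and 96.8% in CGRP unthinned). Osteopontin was thus higher in level over all cells but not in share of cells. Bone sialoprotein (Ibsp) averaged under the minimum of 5 CPM and was not counted, with 5.69 CPM in magnesium and 0.667 CPM in CGRP. Runx2, the master regulator of the bone lineage, was close, at 20.5 CPM in magnesium and 19.7 CPM in CGRP. Sp7, which acts after Runx2, was listed in magnesium but not in CGRP. Its level in magnesium was no more than 0.14 CPM, near the floor, so the listing shows no difference.

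**Figure D3:**
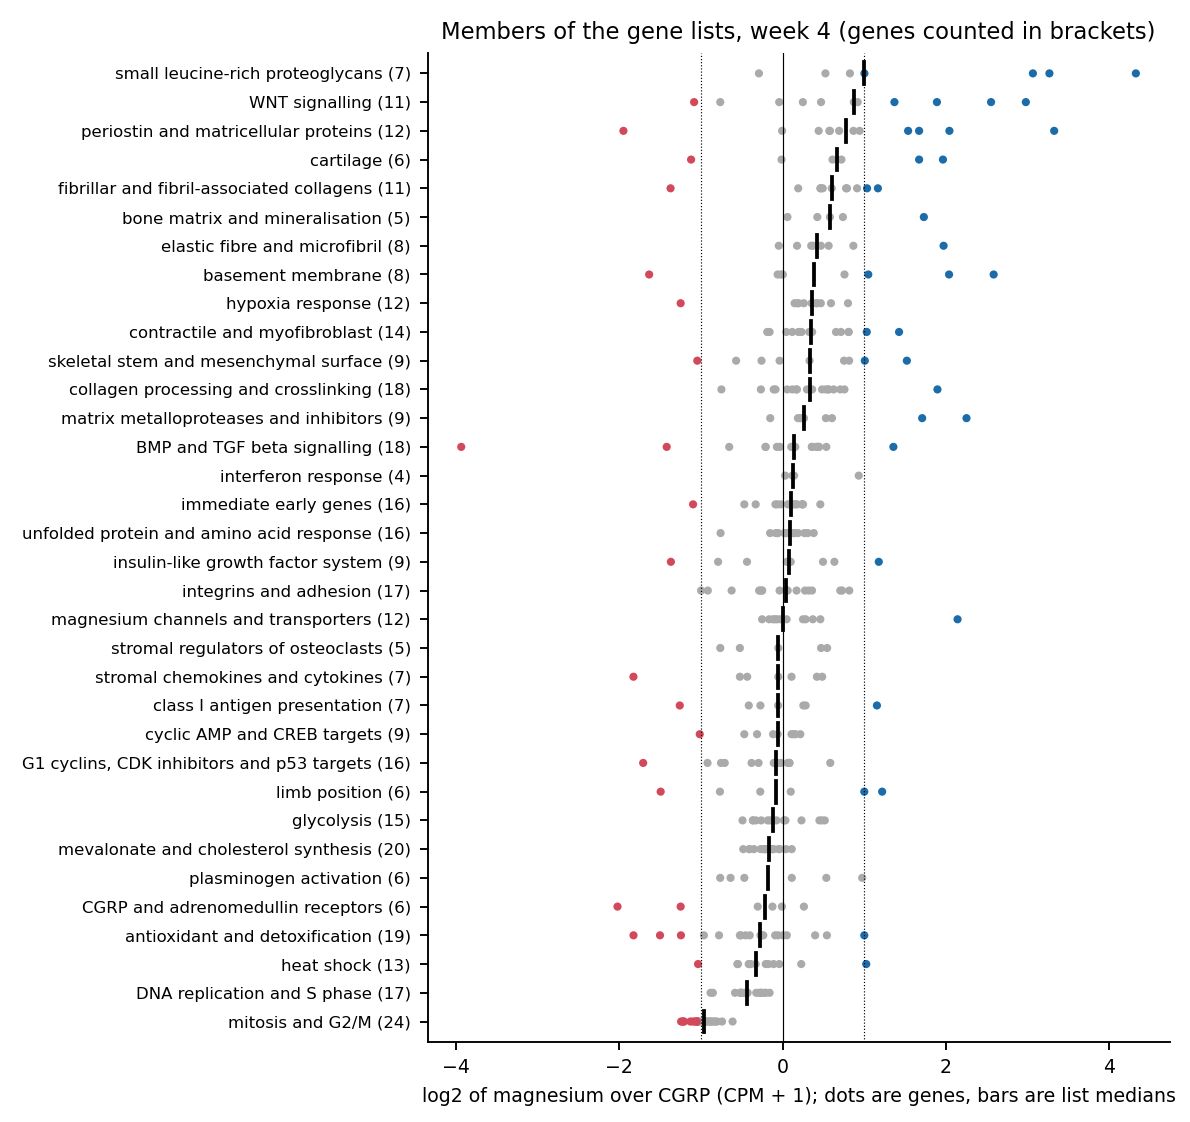
Each dot is a gene of 1 of the 34 lists, placed at its log2 ratio of magnesium over CGRP with 1 CPM added, and bars are list medians. Blue dots are at least 2-fold higher in magnesium and red dots at least 2-fold lower; the medians run from 1.004 for the small leucine-rich proteoglycans to -0.97 for mitosis and G2/M.

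On the side that was lower in magnesium, genes of cell division had the lowest list median. Single genes outside their list lay further from 0. Eno3 had a log2 ratio of -2.64 and Ccnd1 one of -1.71, against -1.24 for Ccnb1, the lowest member of the list. All 24 genes of the mitosis and G2/M list were at least 1.5-fold lower in magnesium and 11 were at least 2-fold lower, with a median log2 ratio of -0.97. The list summed to 1046 CPM in magnesium and 2180 CPM in CGRP. Cyclin B1 (Ccnb1), which with Cdk1 drives entry into mitosis, was at 56.3 CPM in magnesium and 135 CPM in CGRP, against 52.9 CPM with zoledronate alone and 87.3 CPM in control. Cdc20, which switches on the complex that ends mitosis, was at 50.8 CPM in magnesium and 120 CPM in CGRP, and its partner Ube2c at 145 CPM in magnesium and 335 CPM in CGRP. Mki67, a protein of the chromosome surface used as a marker of cycling cells, was at 80.3 CPM in magnesium and 150 CPM in CGRP. Its level was 72.4 CPM with zoledronate alone and 122 CPM in control. Magnesium was close to zoledronate alone for each of these genes, and CGRP was the highest of the 4 libraries.

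Many mitotic genes carry CCAAT boxes, bound by NF-Y, and a cell cycle homology region whose core is TTTGAA, bound by the DREAM complex. The deposited tables are of Rnor_6.0, and the promoters at hand are RefSeq's for another assembly, GRCr8. They matched 20 of the 24 genes. In the 250 bases before the start, CCAAT or its reverse complement ATTGG was found in 17 of 20, against 34.0% of all 33469 windows and 36.8% of the 5733 windows of genes counted here. TTTGAA or its reverse complement TTCAAA was found in 12 of 20, against 16.2% of all windows and 9.80% of those of genes counted. The 3 members lowest in magnesium over CGRP that average at least 50 CPM and have a promoter in the table are shown, since every member of the list was lower. Capitals mark both motifs on either strand, and no base belongs to both. The Ccnb1 window holds CCAAT but no TTTGAA, and those of Cdc20 and Ccnb2 hold both. Ccnb1 lies at chr2:33655226-33655475, Cdc20 at chr5:137255800-137256049 and Ccnb2 at chr8:79981659-79981908, all on the minus strand, and each run is 5′ to 3′ in the sense of the gene. The letters describe these windows and do not show binding.
Ccnb1: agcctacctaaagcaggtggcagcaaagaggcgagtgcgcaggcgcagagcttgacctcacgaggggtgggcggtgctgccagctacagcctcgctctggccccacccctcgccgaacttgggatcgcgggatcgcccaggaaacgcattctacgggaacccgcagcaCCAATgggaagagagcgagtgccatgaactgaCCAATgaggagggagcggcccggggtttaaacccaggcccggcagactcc
Cdc20: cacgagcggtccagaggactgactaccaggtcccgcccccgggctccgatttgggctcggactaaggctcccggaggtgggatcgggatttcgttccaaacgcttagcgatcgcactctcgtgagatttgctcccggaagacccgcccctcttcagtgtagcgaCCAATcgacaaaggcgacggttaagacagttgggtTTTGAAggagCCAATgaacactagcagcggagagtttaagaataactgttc
Ccnb2: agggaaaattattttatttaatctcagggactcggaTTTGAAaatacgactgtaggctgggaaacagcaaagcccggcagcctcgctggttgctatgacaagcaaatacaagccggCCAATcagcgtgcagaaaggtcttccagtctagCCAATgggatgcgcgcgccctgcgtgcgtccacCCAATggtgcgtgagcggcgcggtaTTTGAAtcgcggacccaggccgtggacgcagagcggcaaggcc

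Cells with mitotic transcripts were fewer in magnesium. At least 1 UMI of the list, of 5000 in the cell, was found in 43.7% of magnesium cells (42.6 to 44.9) and 69.8% of CGRP cells (68.7 to 70.8), and these cells held a median of 3 list UMIs in magnesium and 8 list UMIs in CGRP. At least 5 UMIs were found in 1376 cells of magnesium, which is 18.9% (18.0 to 19.9), and in 3373 cells of CGRP, which is 41.9% (40.8 to 43.0). Just under that limit, at 4 UMIs, were 82 cells in magnesium and 216 cells in CGRP, and just at it were 78 cells in magnesium and 154 cells in CGRP. At 10 UMIs or more the shares were 14.4% in magnesium and 33.1% in CGRP. Cells with 5 or more held a mean of 22.4 list UMIs in magnesium and 23.2 list UMIs in CGRP. The list's median log2 ratio was -0.83 over its 2 genes counted in cells with none of its UMIs at 5000, -0.29 in cells with 1 to 4 and -0.02 in cells with 5 or more. The ranges were cut on the UMIs of this same list, which brings the sides together within them, so these ratios are a description of the ranges. They are ranges of cells and not cell types.

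**Figure D4:**
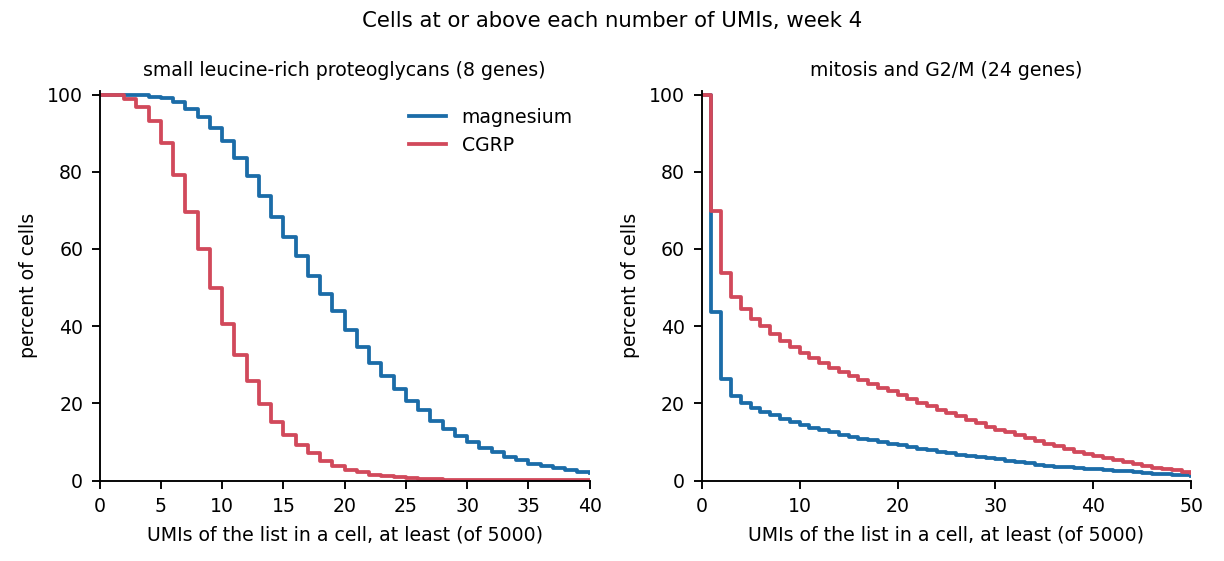
Share of cells at or above each number of UMIs of the small leucine-rich proteoglycan list (left) and of the mitosis and G2/M list (right), with each cell thinned to 5000 UMIs. The magnesium curve lies above the CGRP curve for the proteoglycans (median 17 UMIs in magnesium and 8 UMIs in CGRP) and below it for mitosis (18.9% of magnesium cells and 41.9% of CGRP cells at 5 UMIs or more).

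DNA replication genes were lower in magnesium by less. All 17 counted lay below 0, against 3543 of the 7149 genes counted in all, and their median was -0.43. At least 1.5-fold lower were 2, Rrm2 and Rrm1, the subunits of the enzyme that makes deoxynucleotides. Rrm2 was at 110 CPM in magnesium and 203 CPM in CGRP. Among the cells with no mitosis UMI, with 1 to 4 and with 5 or more, the list's medians were -0.03, -0.05 and 0.06. Cyclin D1 (Ccnd1), which carries growth signals into the cell cycle in G1, was at 67.7 CPM in magnesium and 223 CPM in CGRP, with 66.8 CPM under zoledronate alone and 99.1 CPM in control. It was found in 24.3% of magnesium cells and 56.7% of CGRP cells (56.5% in magnesium and 86.6% in CGRP unthinned). Its log2 ratio was -1.51 among cells with no mitosis UMI and -1.56 among those with 5 or more. Ccnd1 thus differed by about as much in cells with and without mitotic transcripts. The inhibitors of the cell cycle Cdkn2b and Cdkn2c were lower in magnesium too, Cdkn2b at 19.2 CPM against 37.2 CPM in CGRP and Cdkn2c at 41.6 CPM against 70.8 CPM in CGRP. Among cells with no mitosis UMI the log2 ratio of Cdkn2b was -0.75 and that of Cdkn2c -0.84. Among cells with 5 or more it was -1.16 for Cdkn2b, while Cdkn2c was at 143 CPM in magnesium and 129 CPM in CGRP, a log2 ratio of 0.14. Of the 16 genes counted among G1 cyclins, cell cycle inhibitors and p53 targets, 1 was at least 1.5-fold higher in magnesium and 4 were lower.

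Dcn, Lum and Thbs2 were higher in magnesium in each of these ranges of mitosis UMIs. The log2 ratio of Dcn was 3.92 among cells with no mitosis UMI, 4.21 with 1 to 4 and 4.37 with 5 or more. For Lum it was 3.05, 3.01 and 3.23, and for Thbs2 1.89, 1.94 and 1.61. Osteopontin (Spp1) was not higher in each range, with 0.65, 0.54 and -0.06. The number of cells behind these values was 4091, 1801 and 1376 in magnesium and 2436, 2246 and 3373 in CGRP.

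Several detoxification genes were lower in magnesium. Nqo1, a quinone reductase and a textbook target of the transcription factor Nrf2, was at 577 CPM in magnesium and 1368 CPM in CGRP, against 523 CPM with zoledronate alone and 494 CPM in control. It was found in 78.3% of magnesium cells and 96.5% of CGRP cells (96.0% in magnesium and 99.7% in CGRP unthinned). The glutathione transferase Gsta1 was at 62.5 CPM in magnesium and 224 CPM in CGRP, although reads of near-identical copies of this family may be shared. Ptgr1, a reductase of prostaglandins and reactive aldehydes, was at 82.6 CPM in magnesium and 270 CPM in CGRP, although it stood outside the list. Gpx3, a secreted glutathione peroxidase, was higher in magnesium, at 453 CPM against 226 CPM in CGRP. Of the 19 genes counted, 1 was at least 1.5-fold higher in magnesium and 5 were lower, with a median of -0.27. Within the 3 ranges of mitosis UMIs the log2 ratio of Nqo1 was -1.24, -1.28 and -0.98.

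**Figure D5:**
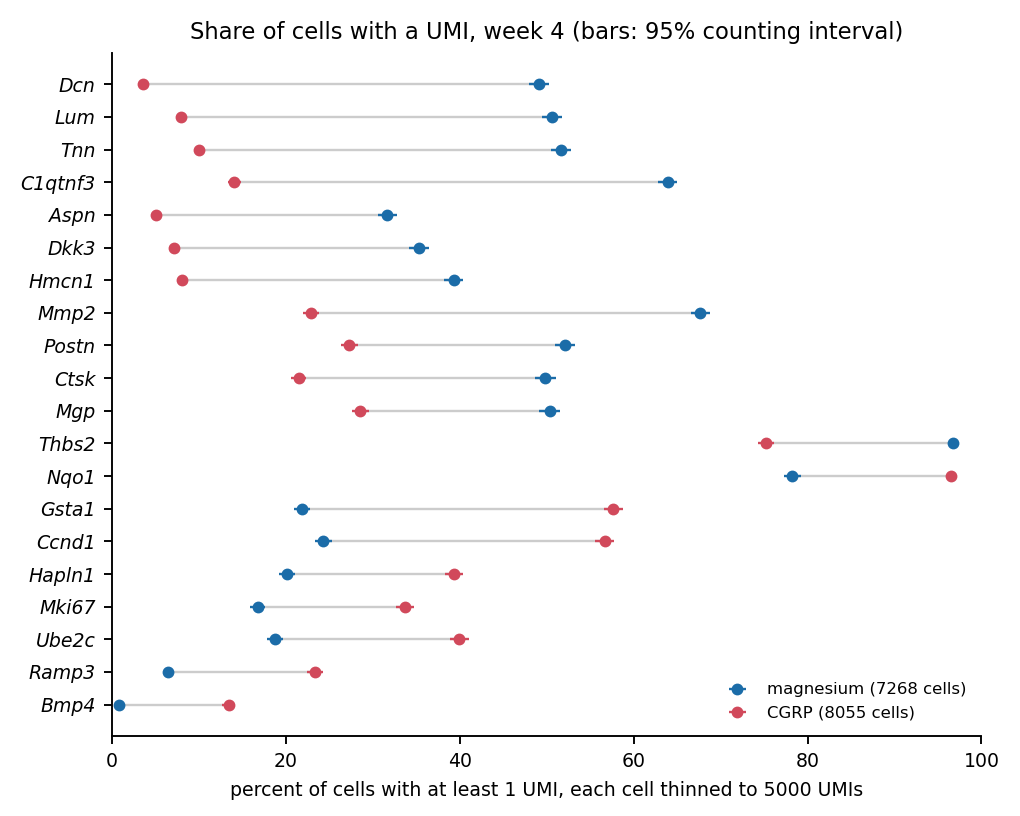
Percent of cells with at least 1 UMI of a gene in magnesium and in CGRP at week 4, each cell thinned to 5000 UMIs, with exact 95% Clopper-Pearson intervals that cover counting error only. Dcn was found in 49.1% of magnesium cells and 3.60% of CGRP cells, and Ccnd1 in 24.3% of magnesium cells and 56.7% of CGRP cells; the genes were picked to show both directions.

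Among ligands of the BMP family Bmp4, which drives bone and cartilage formation, had the lowest ratio of all genes counted. It was at 1.77 CPM in magnesium and 41.5 CPM in CGRP, against 2.53 CPM with zoledronate alone and 11.4 CPM in control. The antagonist gremlin (Grem1) was higher in magnesium, at 123 CPM against 47.4 CPM in CGRP, and follistatin (Fst), which binds activins, was lower, at 19.9 CPM against 55.0 CPM in CGRP. Id1, a target of BMP signals, was at 175 CPM in magnesium and 275 CPM in CGRP. Of 18 genes counted in the BMP and TGF beta list, 1 was at least 1.5-fold higher in magnesium and 3 were lower. Over all genes counted the shares were 4.63% and 4.24%. The list's median log2 ratio was 0.14.

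The WNT list leaned to magnesium, with 6 of 11 genes at least 1.5-fold higher, 2 lower and a median of 0.87. Wnt16, a ligand that protects cortical bone in mice, was at 26.4 CPM in magnesium and 2.47 CPM in CGRP. Dkk3, of the Dickkopf family, was at 98.8 CPM in magnesium and 16.0 CPM in CGRP. The decoy receptor Sfrp4 was at 17.4 CPM in magnesium and 6.11 CPM in CGRP, and the inhibitor Nkd2 at 41.7 CPM in magnesium and 10.5 CPM in CGRP. Rspo1, also of this list, ran against these, at 34.1 CPM in magnesium and 73.3 CPM in CGRP. The ligand Wnt16 and the inhibitors named were thus higher side by side, and Rspo1 was lower. In the insulin-like growth factor system Igfbp3 was higher in magnesium, at 165 CPM against 72.2 CPM in CGRP, and Igfbp6 was lower, at 64.5 CPM against 168 CPM in CGRP. Both are carriers of the growth factors. Of 9 genes counted there, 2 were at least 1.5-fold higher in magnesium and 2 were lower.

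The receptor of CGRP itself was barely seen. Calcrl was at 0.080 CPM in magnesium and 0.0699 CPM in CGRP, and Ramp1 at 0.080 CPM in magnesium and 0.0572 CPM in CGRP. Ramp2, which with Calcrl makes a receptor for adrenomedullin, was at 57.2 CPM in magnesium and 47.5 CPM in CGRP. Ramp3, which makes another adrenomedullin receptor, was at 13.9 CPM in magnesium and 59.6 CPM in CGRP, against 17.7 CPM with zoledronate alone and 14.5 CPM in control. A Ramp3 UMI was found in 6.47% of magnesium cells and 23.3% of CGRP cells (20.2% in magnesium and 53.5% in CGRP unthinned). Adrenomedullin (Adm) was at 2.93 CPM in magnesium and 8.33 CPM in CGRP. Of 9 genes counted among targets of cyclic AMP, 0 were at least 1.5-fold higher in magnesium and 1 was lower. That one was Akap12, a scaffold of protein kinase A, at 162 CPM in magnesium and 328 CPM in CGRP. Fos, an early target, was at 152 CPM in magnesium and 158 CPM in CGRP, and Nr4a1 at 19.7 CPM in magnesium and 24.7 CPM in CGRP. Both were higher than with zoledronate alone, where Fos was at 71.2 CPM and Nr4a1 at 8.44 CPM.

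Of 12 magnesium channels and transporters counted, 1 was at least 1.5-fold higher in magnesium and 0 were lower, with a median of 0.01, which was -0.0071 with TMM scaling and -0.016 with DESeq2 scaling. That one was Cnnm2, a magnesium transporter of the cell surface, at 11.6 CPM in magnesium and 1.86 CPM in CGRP, with 10.5 CPM under zoledronate alone and 6.47 CPM in control. Trpm7, a channel kinase that lets magnesium in, was at 51.0 CPM in magnesium and 39.2 CPM in CGRP. Slc41a1, which moves magnesium out in exchange for sodium, was at 9.93 CPM in magnesium and 6.93 CPM in CGRP. Trpm6 was listed in neither table.

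Contractile genes were on the magnesium side, with 6 of 14 at least 1.5-fold higher and 0 lower. Smooth muscle actin (Acta2), the hallmark of myofibroblasts, was at 2823 CPM in magnesium and 1611 CPM in CGRP, and calponin (Cnn1) at 166 CPM in magnesium and 61.2 CPM in CGRP. The median cell held 102 UMIs of the list in magnesium and 74 UMIs in CGRP. In the hypoxia list 11 of 12 genes lay above 0, against 3606 of the 7149 genes counted in all. Bnip3, which directs mitochondria to breakdown, was at 233 CPM in magnesium and 133 CPM in CGRP, while Adm lay below 0. Of the 20 genes of the mevalonate pathway, in which zoledronate blocks the enzyme Fdps, 18 lay below 0, but 0 were 1.5-fold apart. Over all 7149 genes counted, 3543 lay below 0. Fdps was at 365 CPM in magnesium and 426 CPM in CGRP.

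Of 5 stromal regulators of osteoclasts and of 7 chemokines and cytokines counted, 0 were at least 1.5-fold higher in magnesium and 1 in each list was lower. The receptor decoy osteoprotegerin (Tnfrsf11b), which holds osteoclasts back, was at 36.4 CPM in magnesium and 24.6 CPM in CGRP, and its ligand Tnfsf11 was listed in neither table. Csf1, a growth factor of macrophages and osteoclasts, was at 35.3 CPM in magnesium and 51.1 CPM in CGRP, and the chemokine Ccl2 at 23.5 CPM in magnesium and 17.3 CPM in CGRP. Il33, an alarm cytokine of stroma, was lower in magnesium, at 5.72 CPM against 22.8 CPM in CGRP. The class I genes RT1-A2, at 61.5 CPM in magnesium and 27.0 CPM in CGRP, and RT1-A1, at 5.43 CPM in magnesium and 14.4 CPM in CGRP, are near-identical copies in an outbred strain, so their split is uncertain. Heat shock genes had a median of -0.33, with Hspb1 at 1084 CPM in magnesium and 532 CPM in CGRP and Cryab at 82.2 CPM in magnesium and 170 CPM in CGRP. Glycolysis, with a median of -0.11, had 0 of 15 genes 1.5-fold apart. Eno3, the muscle form of enolase and outside that list, was at 16.1 CPM in magnesium and 106 CPM in CGRP. The unfolded protein list, with a median of 0.09, had 1 of 16 genes 1.5-fold apart. The immediate early genes, with a median of 0.10, also had 1 of 16. Over all genes counted, 4.63% were at least 1.5-fold higher in magnesium and 4.24% were lower.

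The remaining lists held genes on both sides. Of 17 integrin and adhesion genes, 3 were at least 1.5-fold higher in magnesium and 3 were lower, and fibronectin (Fn1), the adhesive protein of early repair matrix, was at 6125 CPM in magnesium and 3473 CPM in CGRP. Of 9 mesenchymal surface markers, 4 were higher and 1 was lower, with the growth factor receptor Pdgfrb at 17.8 CPM in magnesium and 8.34 CPM in CGRP and Cd200 at 38.7 CPM in magnesium and 81.0 CPM in CGRP. Of 6 genes that mark position along the limb, 2 were higher and 2 were lower. Among them Hoxd9 was at 14.8 CPM in magnesium and 5.78 CPM in CGRP, and Hoxc11 at 8.11 CPM in magnesium and 24.6 CPM in CGRP. Of 6 plasminogen activation genes, 1 was higher and 2 were lower. Annexin A2 (Anxa2), which gathers plasminogen at the cell surface with S100a10, was at 656 CPM in magnesium and 1114 CPM in CGRP. Of 4 interferon response genes 1 was higher and 0 were lower.

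Set beside the other libraries of week 4, CGRP was more often at an end of the order than magnesium. Of the 106 genes at least 2-fold higher in magnesium, CGRP was the lowest of 4 in 102 (96.2%) and magnesium the highest in 61 (57.5%). Over all genes counted, CGRP was the lowest in 39.6% and magnesium the highest in 18.8%. Magnesium lay within 1.5-fold of zoledronate alone in 94 of the 106 (88.7%) and CGRP in 1 (0.94%), where over all genes counted the shares were 98.9% for magnesium and 90.1% for CGRP. Both shares were thus lower among these genes than over all genes. Of the 73 lower genes, magnesium was the lowest of 4 in 33 (45.2%) and CGRP the highest in 70 (95.9%), against 21.2% and 36.7% over all genes counted. Magnesium lay within 1.5-fold of zoledronate alone in 62 of these 73 (84.9%) and CGRP in 7 (9.59%). The contrast was smaller against control. Magnesium lay within 1.5-fold of control in 74 of the 106 and 45 of the 73, and CGRP in 17 and 16. Over all 7149 genes counted, magnesium did so in 6986 and CGRP in 6760. The 106 and the 73 genes were picked for their distance between magnesium and CGRP, so a position at an end is part of the choice. Over all 7149 genes, which were not picked so, 22 were at least 2-fold away from zoledronate alone in magnesium, 12 above and 10 below. In CGRP 91 were above and 110 below. Both comparisons share the zoledronate library.

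At week 12 the same pair of treatments was compared in separate libraries. Of the 106 genes, 14 were again at least 2-fold higher in magnesium and 10 were lower, against 0.699% and 0.616% of the 7148 genes with a value in both. Of the 73 genes, 5 were again lower and 2 higher. The list of mitosis genes, with a median of -0.97 at week 4, had one of -0.02 at week 12. The small leucine-rich proteoglycans had 1.004 at week 4 and -0.85 at week 12. Contractile genes had 0.35 at week 4 and 0.54 at week 12, on the magnesium side at both times. Grem1, at 1137 CPM in magnesium and 412 CPM in CGRP at week 12, was also on that side at both. Which of these differences belong to the treatment, the animals, the culture or the library cannot be told apart with 1 library a group.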

How the data were processed

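Single-cell RNA libraries of callus cells were made with 10x V3 chemistry. The authors deposited 1 table of UMI counts per library, genes by barcodes, with values as whole numbers. The aligner was STAR and the build Rnor_6.0, per the submitters' processing notes. Neither a version nor an annotation or cell caller is named there. As deposited, no gene had fewer than 5 cells with a UMI and no barcode fewer than 500 genes. Mitochondrial genes listed were 0. The tables held 8228 barcodes in magnesium and 8730 in CGRP, of which 960 in magnesium and 675 in CGRP were under 5000 UMIs and left out. No doublet caller was used. Of the barcodes, 16 occurred in both libraries, 11 of them among the cells used.

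Counts were summed per gene, scaled to CPM by the library's total and compared as log2 of CPM + 1. Genes averaging at least 5 CPM were counted. Each cell was thinned to 5000 UMIs with a fixed seed for shares. In such sums, fewer cells of a type and less RNA per cell cannot be told apart. Shares of cells are given beside them, but a share at 5000 UMIs also falls with the level per cell. It therefore does not separate these either. CPM is not per length, so levels are compared within a gene only. Intervals treat UMIs as independent draws. The set of named genes held the 15 genes furthest from 0 in each direction among those averaging at least 50 CPM. It also held up to 4 members per list furthest from 0, a set of well known genes, and the 5 most abundant. Not every gene of this set, Anxa3 and Fam111a among them, is described in the text. The lists, markers and members were chosen with earlier results of these data known, so no list is independent evidence. Alternatives used TMM factors (edgeR 4.0.16) and size factors (DESeq2 1.42.0, R 4.3.3), other cell and gene minimums and other pseudocounts. Python 3.11.15 with numpy 2.4.6, scipy 1.17.1 and pandas 2.3.3 did the rest. The ratio, its interval and the counts past a fold were tested on simulated data.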

Additional observations from a re-analysis of the deposited data

Results flagged for a closer look

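Of the 69 named genes at least 2-fold apart at week 4, 9 lay on the opposite side at week 12, again at least 2-fold apart. Only these 9 are listed here. Among all genes at least 2-fold apart at week 4, more kept their side at 2-fold than changed it. Of the 106 higher genes 14 were higher again and 10 lower, and of the 73 lower genes 5 were lower again and 2 higher. The difference between the weeks was not tested, since each value is from 1 library a group. Decorin (Dcn) had a log2 ratio of magnesium over CGRP of 4.33 at week 4 and -1.89 at week 12, where it was at 47.2 CPM in magnesium and 178 CPM in CGRP. Lumican (Lum) had 3.27 at week 4 and -3.78 at week 12, and asporin (Aspn) 3.07 and -1.01. Matrix Gla protein (Mgp) had 2.49 at week 4 and -2.03 at week 12. The inhibitor Timp3 had 1.71 and -2.40, and the ligand Wnt16 had 2.98 and -2.98. Follistatin (Fst) went the opposite way, with -1.42 at week 4 and 1.58 at week 12, as did Ramp3, with -2.02 and 1.14. RT1-A2 had 1.16 at week 4 and -4.62 at week 12, where it was at 0.914 CPM in magnesium and 46.1 CPM in CGRP; it is a class I gene with near-identical copies in an outbred strain.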

How the results depend on the processing

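No paired analysis was possible because each group is 1 library. The counts of genes at least 2-fold higher and lower in magnesium, 106 and 73, were 66 and 39 with 5 CPM added, and 58 and 48 among the 4301 genes averaging 20 CPM; without a minimum, over 11265 genes, 168 were higher. At 1.5-fold, 331 and 303 of 7149 genes became 188 and 182 of 4301 at 20 CPM. Higher genes were 522 of 11265 without a minimum, and lower genes were 149 of 6955 in cells with no mitosis UMI. A minimum changes how many genes are counted, so a count that moves with it need not be a share that moves. The other alternatives, TMM and DESeq2 scaling, all barcodes, at least 10000 UMIs, cells thinned to 5000 UMIs and 0.1 CPM added, kept each count within 1.5 times. So did 5000 to 30000 UMIs, and leaving out barcodes found in both libraries; both were chosen after seeing the data. The 69 named genes at least 2-fold apart all stayed 1.5-fold apart in the same direction under every alternative, save that mitosis genes were not judged in cells without their UMIs. Of 407 medians of the 34 lists, 12 changed sign. In 5 of these the reported median was at least 0.1 from 0: basement membrane (0.38) was -8.4e-05 at 10000 UMIs, plasminogen activation (-0.18) was 0.012 and interferon response (0.13) was -0.0052 without a minimum, skeletal stem markers (0.33) were -0.15 at 20 CPM, and immediate early genes (0.10) were -0.0089 in cells with no mitosis UMI. The other 7 came from 4 lists nearer 0: magnesium channels and transporters (0.01) were -0.0071 with TMM and -0.016 with DESeq2 scaling, class I antigen presentation (-0.05) was 0.14 with thinned cells, 0.27 at 20 CPM and 0.08 with no mitosis UMI, and without a minimum osteoclast regulators (-0.05) were 0.12 and limb position genes (-0.09) 0.01. The cause was not tested. Shares of cells depend on depth and are given at 5000 UMIs.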

Other observations

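Lbp, the lipopolysaccharide-binding protein, stood outside the named genes because it averages under 50 CPM, and was singled out after its values were seen. It was at 75.6 CPM in magnesium and 3.29 CPM in CGRP at week 4, against 68.2 CPM with zoledronate alone and 97.2 CPM in control. A UMI was found in 23.5% of magnesium cells and 1.69% of CGRP cells after thinning, and in 48.5% of magnesium cells and 4.42% of CGRP cells before it. At week 12 it was at 27.0 CPM in magnesium and 46.0 CPM in CGRP.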
